A study of Mus musculus with 16 samples.

Results

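Egln3 encodes the prolyl hydroxylase PHD3, 1 of a small family of oxygen sensors, and was examined here in CD4+ T cells of the lymph nodes that drain the heart. It is represented by 1 probe set of 41345, transcript cluster 17281084, found as the only row with the symbol Egln3 in the authors' deposited tables of 2-fold changes. That row stands among 196 in the table for myosin-specific cells, and none of the 274 rows of the table for endogenous cells carries the symbol. The gene was therefore chosen for its difference in myosin-specific cells, and its values there are a description, with no test.

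There were 16 arrays: 5 of TCRM cells after infarction and 3 of TCRM cells after sham surgery, and 5 of ENDO cells after infarction and 3 of ENDO cells after sham surgery. TCRM cells were Thy1.1 CD4+ T cells with a transgenic T cell receptor for cardiac myosin, taken from naive TCR-M donors and given 1 day before the operation to wild type male BALB/c recipients (Thy1.2, 8 to 12 weeks old). ENDO cells were the CD4+ T cells of those same recipients. TCRM and ENDO arrays thus share animals, but the labels do not say which arrays come from 1 mouse. In infarction mice the left anterior descending coronary artery was tied, and sham mice had the chest opened without ligation. Mice of both operations received buprenorphine (0.1 mg/kg) against pain for 72 h. CD4+ TCRbeta+ cells were sorted from mediastinal lymph nodes on day 7, to a purity above 98% per the labels. All 16 samples thus share a host that carried transferred cells, surgery and the analgesic, and no sample came from an unoperated mouse. The donor receptor is 1 transgenic specificity, and the promoter that drives it is not given in the sources used here.

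Prolyl hydroxylases of the EGLN family use oxygen, iron and 2-oxoglutarate to hydroxylate prolines of the alpha subunits of hypoxia-inducible factor (HIF). The hydroxylated subunit is recognised by the VHL ubiquitin ligase and degraded, so the subunits build up when oxygen is scarce. Egln3 is itself a well known HIF target in many cell types, which makes it part of a feedback loop. Its transcript level alone does not report oxygen tension or HIF activity.

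The gene lies on chromosome 12 of mouse, from base 54178981 to base 54203874 of GRCm38.p6, on the minus strand (24894 bases, RefSeq). Its promoter is printed because the hypoxia response element, the site HIF binds, has the core ACGTG or GCGTG. The 250 bases before the RefSeq start (chr12:54203875-54204124, minus strand, 5′ to 3′) read as follows, with the core match in capitals.
Egln3: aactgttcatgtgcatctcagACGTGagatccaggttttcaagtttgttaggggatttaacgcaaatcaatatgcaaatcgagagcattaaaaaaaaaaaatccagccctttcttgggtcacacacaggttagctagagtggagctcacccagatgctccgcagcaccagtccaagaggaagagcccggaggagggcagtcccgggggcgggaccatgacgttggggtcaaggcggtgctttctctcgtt
The window held 1 match, ACGTG on the coding strand, and its first base lies at position -229 from the start. Both cores were searched on both strands, and cores that overlap each other were counted separately. Of 32851 RefSeq promoter windows of this length 38.6% held at least 1 match, so a match is common. It is a description of the C57BL/6J reference, not a shown binding site, and the mice here were BALB/c.

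Egln3 signal was high on the TCRM infarction arrays alone. It read 7.75, 8.01, 7.16, 6.97 and 7.30 (log2) on TCRM infarction arrays 1 to 5, against 5.94, 4.06 and 5.22 on TCRM sham arrays 1 to 3. No sham value reached the infarction values, and the lowest infarction array was 1.03 above the highest sham array. Such separation with infarction higher was found for 5.64% of the 28941 probe sets tested, and since the gene was chosen on this contrast nothing is read from it.

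Mean Egln3 signal was 7.44 ± 0.43 (log2, SD, n = 5) on TCRM infarction arrays and 5.07 ± 0.95 (SD, n = 3) on TCRM sham arrays. The difference was 2.36 ± 0.35 (log2, SE from the limma fit to all 16 arrays), which is 5.15-fold. With the 8 TCRM arrays alone the SE was 0.40. The sham arrays spanned 1.88 log2 units and the infarction arrays 1.04, so the sham level is the less certain side of the difference. Within groups Egln3 had an SD of 0.65 in TCRM cells, against a median of 0.197 over all tested probe sets, and 95.6% of probe sets varied less. Without sham array 2, the lowest, the difference was 1.86 ± 0.31 (log2, SE). Without sham array 1, the highest, it was 2.80 ± 0.35. Sham array 2 lay below the cutoff of 4.72 used here to leave out dim probe sets. Signal over background is not known for these arrays, so the size of the difference is uncertain.

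**Figure D1:**
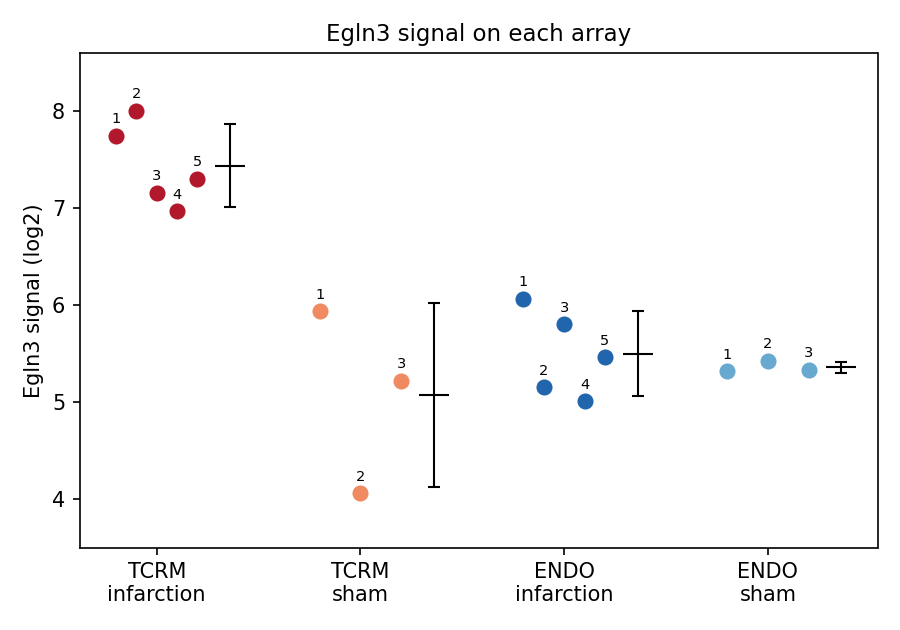
Egln3 signal (log2, y axis) on each of the 16 arrays, by group (x axis); points are arrays with their number, and bars to the right of the points are the group mean ± SD. The 5 TCRM infarction arrays lie between 6.97 and 8.01, above every array of the other 3 groups, whose highest value is 6.06.

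In the authors' deposited table Egln3 averaged 7.4 in TCRM infarction cells and 5.12 in TCRM sham cells (log2), with a fold of 4.84. The authors' deposited table gives a p-value of 0.002491 and a false discovery rate of 0.187 for it, so it passed that table's thresholds of 2-fold and 0.05 by p but not by false discovery rate. By the difference of the authors' averages it ranked 11 of the 153 probe sets that their deposited table gives as higher after infarction, and 10 among those with 1 symbol. Array 5 of each infarction group is titled infarction while its source name says sham. A biweight average over the groups of the titles gave 7.40 on infarction and 5.12 on sham arrays, equal to the averages of the authors' deposited table, while the groups of the source names gave 7.46 and 5.60. The titles were used. With the source names instead, the difference was 1.84 ± 0.49 (log2, SE).

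In ENDO cells Egln3 showed no comparable separation. It read 6.06, 5.16, 5.80, 5.01 and 5.46 (log2) on ENDO infarction arrays 1 to 5, against 5.32, 5.43 and 5.33 on ENDO sham arrays 1 to 3. The groups overlapped: all 3 sham values lay inside the range of the infarction values, with infarction arrays 1, 3 and 5 above them and arrays 2 and 4 below. Means were 5.50 ± 0.44 (SD, n = 5) in ENDO infarction cells and 5.36 ± 0.06 (SD, n = 3) in ENDO sham cells.

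The gene was chosen through its row for TCRM cells, and the ENDO contrast was tested. Its absence from the authors' deposited ENDO table already meant that it missed that table's thresholds of 2-fold and 0.05 by p. A test on these same arrays is therefore no independent check, and the interval is the more useful result. The difference was 0.14 ± 0.35 (log2, SE), with a 95% interval from -0.62 to 0.89 and limma's adjusted p = 0.938. In the same fit 0.888% of 28941 probe sets were called in ENDO cells. An exact 2-sided permutation test over the 56 splits of the 8 ENDO arrays gave p = 0.643. With the 8 ENDO arrays alone the interval ran from -0.42 to 0.70. That smaller fit called 0 of 28941 probe sets by limma's adjusted p (2307 had an unadjusted p under 0.05), so it could not single out Egln3. The intervals leave room for an ENDO difference in either direction. Leaving out infarction array 1 turned the sign (-0.003 ± 0.36).

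The TCRM minus ENDO difference of the infarction responses was 2.23 ± 0.50 (log2, SE). It contains the TCRM contrast that chose the gene and is given with no test. Without TCRM sham array 2 it was 1.72, and without TCRM sham array 1 it was 2.66.

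**Figure D2:**
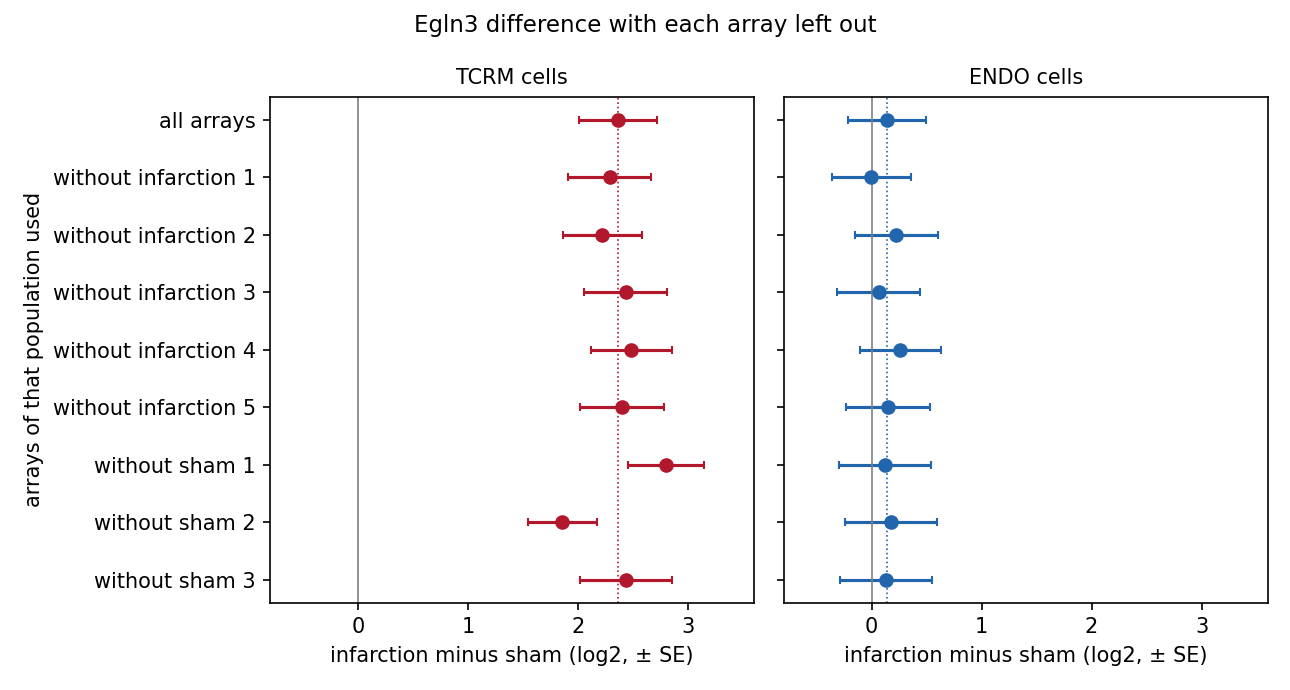
Egln3 infarction minus sham (log2, x axis, points, with SE as bars) with all arrays and with each array of that population left out in turn (y axis), for TCRM cells (left) and ENDO cells (right); dotted lines mark the value with all arrays and grey lines mark 0. The TCRM values run from 1.86 to 2.80, and the ENDO values from -0.003 to 0.26.

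By mean level the groups ranked TCRM infarction (7.44), ENDO infarction (5.50), ENDO sham (5.36) and TCRM sham (5.07). The lower 3 overlap in range, so their order is not resolved by these arrays. Array medians were 5.37 to 5.43 in TCRM cells and 5.61 to 5.79 in ENDO cells, as the populations appear to have been normalized separately, and levels were not tested between them. After joint quantile normalization of the 16 arrays Egln3 averaged 7.34 ± 0.38 (SD, n = 5) in TCRM infarction, 5.22 ± 0.90 (SD, n = 3) in TCRM sham, 5.34 ± 0.49 (SD, n = 5) in ENDO infarction and 5.17 ± 0.11 (SD, n = 3) in ENDO sham cells. TCRM infarction cells remained highest on that scale, and TCRM sham and ENDO sham cells changed places. In these bulk samples a larger share of cells with the transcript and more transcript per cell cannot be told apart.

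Few partners of Egln3 in oxygen sensing could be named, since a probe set has a name here only where the authors' deposited tables give its symbol. Of the 20 other genes on the list of prolyl hydroxylases and the HIF pathway 1 was named, Cited2. Cited2 competes with HIF for the coactivators p300 and CBP and is itself induced by HIF. It read 9.75, 10.14, 9.24, 9.43 and 9.63 (log2) on TCRM infarction arrays, against 8.71, 8.39 and 8.41 on TCRM sham arrays, without overlap. The difference was 1.13 ± 0.29 (log2, SE), and limma's adjusted p was 0.109. Cited2 owes its name to the authors' selection on that contrast, so its separation and p-value there are no independent test. Such separation with infarction higher was found for 5.64% of all probe sets tested. In ENDO cells the Cited2 difference was 0.19 ± 0.29. The other family members, Egln1 and Egln2, and the HIF subunits are not analysed here.

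Of 39 genes on the list of HIF targets 3 were named: Bhlhe40, Nt5e and Anxa2. All 3 passed the test as higher in TCRM infarction cells, where 0.667% of all probe sets did, but each owes its name to the authors' selection on that contrast, so the count is not evidence about HIF targets. With groups taken from the source names 0 probe sets were called in TCRM cells by limma (2051 had an unadjusted p under 0.05), so every TCRM call given here rests on the titles. The list's named members had a median TCRM difference of 1.42 (log2), against -0.002 over all probe sets tested.

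Bhlhe40, a transcriptional repressor that shapes cytokine production in helper T cells, read 8.65, 8.49, 8.34, 8.45 and 8.32 (log2) on TCRM infarction arrays. On TCRM sham arrays it read 7.50, 6.41 and 7.19. All infarction arrays were higher, and as for Egln3 sham array 2 was lowest and sham array 1 highest. Nt5e, the ectoenzyme CD73 that makes adenosine from AMP, had a TCRM difference of 1.93 ± 0.24 (log2, SE), with 9.08 ± 0.39 (SD, n = 5) on infarction and 7.15 ± 0.25 (SD, n = 3) on sham arrays. Anxa2, the membrane-binding protein annexin A2, had a TCRM difference of 1.31 ± 0.20 (log2, SE). Anxa2 also read highest on sham array 1 and lowest on sham array 2, while Nt5e was highest on sham array 3 and lowest on sham array 1.

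In ENDO cells the infarction minus sham differences (log2, SE) were -0.01 ± 0.20 for Bhlhe40, -0.06 ± 0.24 for Nt5e and 0.39 ± 0.20 for Anxa2. None of the 3 passed in ENDO cells, with limma's adjusted p between 0.488 and 0.996. Of the 23 glycolysis genes, the 58 other 2-oxoglutarate dioxygenases and the 9 reported substrates and partners of EGLN3 none was named. Those lists are therefore not analysed here.

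**Figure D3:**
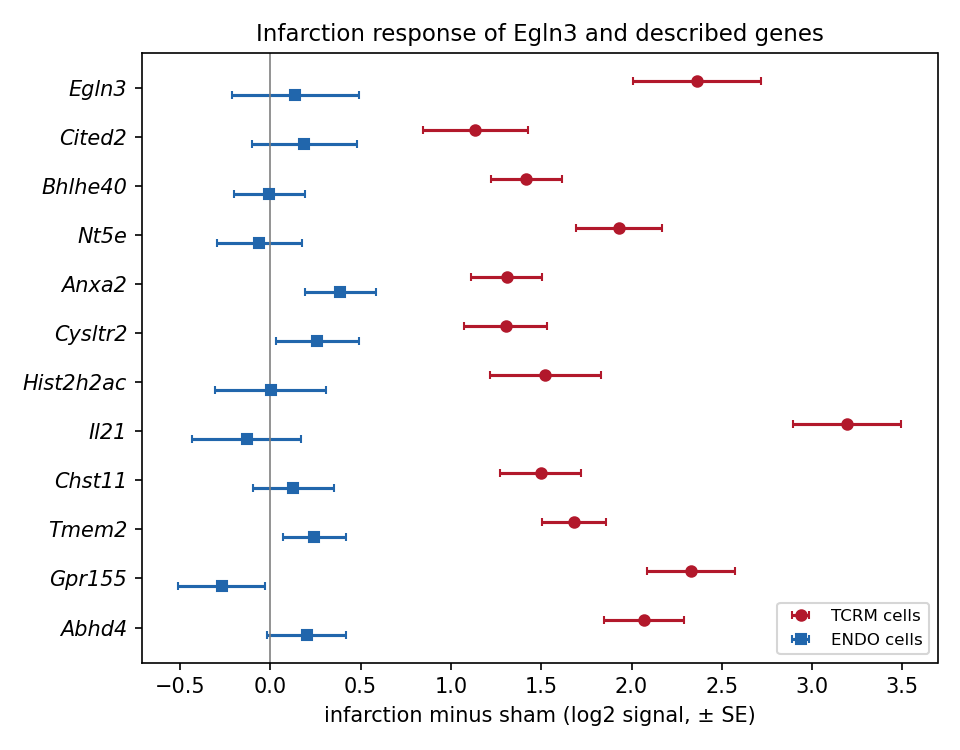
Infarction minus sham (log2 signal, x axis) in TCRM cells (red circles) and ENDO cells (blue squares) for Egln3, the named HIF pathway and target genes and the named genes most like Egln3 (y axis); bars are SE from the limma fit. The TCRM differences run from 1.13 for Cited2 to 3.19 for Il21, and the ENDO differences from -0.27 for Gpr155 to 0.39 for Anxa2.

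The genes whose pattern was most like that of Egln3 were ranked by Pearson's r over the 16 arrays after the mean of each population was removed, among 154 named candidates. The first 8 were Cysltr2 (r = 0.957), Hist2h2ac (0.940), Il21 (0.939), Chst11 (0.939), Bhlhe40 (0.936), Tmem2 (0.921), Gpr155 (0.919) and Abhd4 (0.918). The ranking depends on the measure: by Spearman's rank correlation 1 of the 8, Cysltr2, was among the first 8, and with group means removed 5 were. All 8 come from the authors' TCRM table, and the operation groups were left in, so a shared infarction difference makes up much of r. Of 28940 other probe sets tested 15 reached the r of Abhd4 or more, and the highest was Cysltr2. The median r over all other probe sets was -0.01.

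Cysltr2 encodes a receptor for cysteinyl leukotrienes, lipid mediators of inflammation. It read 7.34, 7.23, 6.79, 7.08 and 6.99 (log2) on TCRM infarction arrays, against 6.50, 5.23 and 5.61 on TCRM sham arrays. Its sham arrays stand in the same order as those of Egln3, with array 1 highest and array 2 lowest. In ENDO cells it read 6.31, 5.92, 6.48, 5.91 and 6.14 on infarction arrays and 5.97, 5.99 and 5.73 on sham arrays. Infarction arrays 1 and 3 were its highest there, as they were for Egln3. With the group means removed its r with Egln3 was 0.868, the highest of the 154 candidates on that measure too.

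Il21, the helper T cell cytokine that acts on B cells, read 8.54, 8.21, 7.16, 8.14 and 7.87 (log2) on TCRM infarction arrays and 5.50, 4.09 and 4.77 on TCRM sham arrays. Hist2h2ac, a histone H2A gene with close paralogs whose identity is therefore uncertain, had a TCRM difference of 1.52 ± 0.31 (log2, SE). Chst11, a chondroitin sulfotransferase, had a TCRM difference of 1.496 ± 0.225 and Tmem2, a cell surface hyaluronidase (current symbol Cemip2), of 1.68 ± 0.18. Gpr155 differed by 2.33 ± 0.24 in TCRM cells, and Abhd4, a lipase of N-acylethanolamine metabolism, by 2.07 ± 0.22. In ENDO cells the 8 genes had differences between -0.27 and 0.26. The TCRM minus ENDO difference of responses passed limma's adjusted p as higher for 4 of the 8, Il21, Tmem2, Gpr155 and Abhd4, where 0.166% of all probe sets did; the choice of genes from the TCRM table favoured that direction. That fit does not use the shared animals, since the labels do not match arrays by mouse. The array number was tried as a block in place of the mouse, although equal numbers showed no likeness. As a fixed replicate block it left 0 probe sets called by limma (2476 had an unadjusted p under 0.05), and as a random block 61. With source name groups 0 were called (3033 unadjusted), so these calls were lost there and with the fixed block.

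The likeness was strong in TCRM and uneven in ENDO cells. Over the 8 TCRM arrays r with Egln3 lay between 0.956 for Hist2h2ac and 0.980 for Bhlhe40. Over the 8 ENDO arrays it lay between -0.03 for Abhd4 and 0.799 for Cysltr2. The 8 TCRM arrays form infarction and sham groups that do not overlap for these genes, so r there mostly restates that difference. With group means removed, r over the 16 arrays lay between 0.596 and 0.868.

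The sham arrays ordered the 8 genes much as they ordered Egln3: all 8 were lowest on TCRM sham array 2 and 7 of 8 were highest on sham array 1. Genes were ranked on these very arrays, so this is a description of the ranking. Of the 192 other probe sets called higher in TCRM infarction cells 83 were lowest on sham array 2, and 20.3% were both lowest on sham array 2 and highest on sham array 1. Of all 28941 probe sets 8211 were lowest on sham array 2, and 12.2% were both lowest there and highest on sham array 1.

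**Figure D4:**
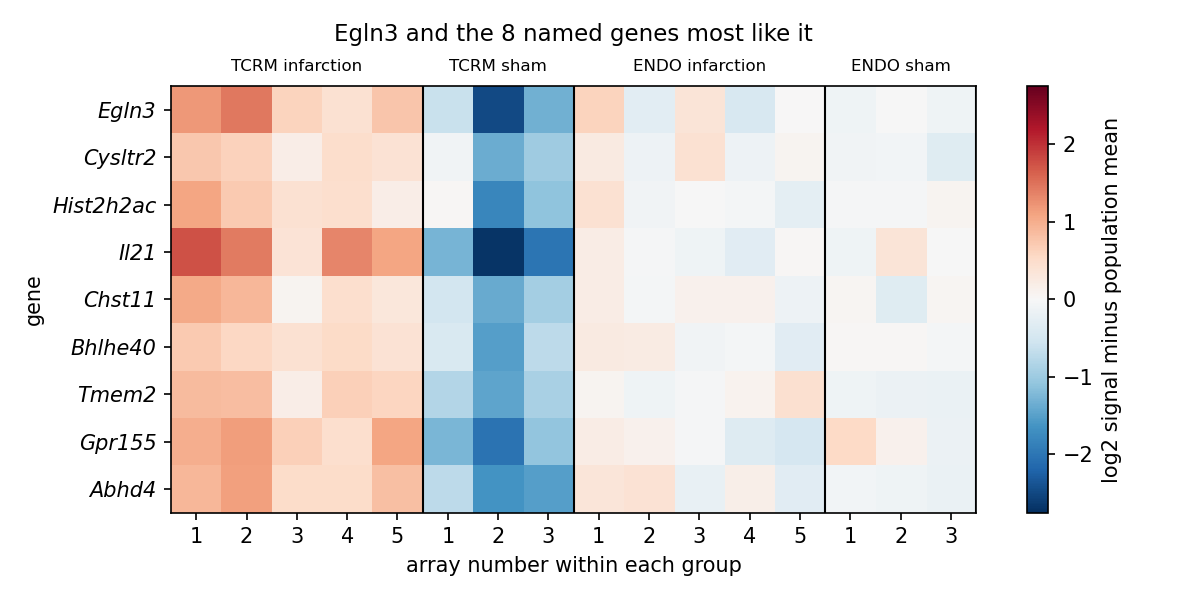
Log2 signal minus the mean of the population (colour) for Egln3 and the 8 named genes most like it (y axis) on the 16 arrays (x axis), by group. In TCRM cells every one of the 9 genes is lowest on sham array 2, and Egln3 there is 4.06, the lowest Egln3 value of the 16 arrays.

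Among the candidates with the lowest r were Olfr1454, an olfactory receptor (-0.766), and Treml2, a receptor of the TREM family (-0.761). Olfr1454 averaged 3.31 on TCRM infarction arrays, under the cutoff for dim probe sets. Treml2 averaged 7.15 ± 0.28 (log2, SD, n = 5) on TCRM infarction and 8.24 ± 0.27 (SD, n = 3) on TCRM sham arrays, a difference that did not pass (adjusted p = 0.0662 by limma). Olfr1454 and Treml2 were named through the authors' TCRM table, so their TCRM values are no independent test.

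Lists of helper T cell states were also read beside Egln3. On the list of follicular helper T cells 8 of 22 genes were named, and all 8 were called higher in TCRM infarction cells, against 0.667% of all probe sets. Their median difference was 2.20 (log2) in TCRM cells, against 0.20 in ENDO cells. Pdcd1, the inhibitory receptor PD-1, had r = 0.912 with Egln3, Tigit, another inhibitory receptor, 0.907, Il4, a helper cytokine, 0.887, and Maf, a transcription factor, 0.865. Angptl2, a secreted angiopoietin-like protein, had r = 0.891 and the membrane glycoprotein gene Gpm6b 0.861. The operation groups were left in, so a shared infarction difference makes up much of these r values. With group means removed r was 0.67 for Pdcd1, 0.58 for Tigit, 0.45 for Il4, 0.32 for Maf, 0.41 for Angptl2 and 0.26 for Gpm6b. Of 26 genes for inhibitory receptors, exhaustion and anergy 5 were named, and all 5 were called higher, against the same 0.667%. The lists share members, so their counts are not separate results: Pdcd1 and Tigit are also on the follicular helper list, and Nt5e is also on the list of HIF targets. Their median difference was 1.93 in TCRM cells, against 0.41 in ENDO cells. The members called include Cd38 (an NAD-consuming ectoenzyme, r = 0.809) and Nrp1 (neuropilin 1, r = 0.712). With group means removed r was 0.44 for Cd38 and 0.09 for Nrp1. Membership in the authors' table fixed these directions, and in ENDO cells 0 of the named members of either list passed by limma's adjusted p, where 0.888% of all probe sets did. Before adjustment Cd38 and Tigit were under 0.05 in ENDO cells, as were 3321 of all probe sets. The ENDO difference was 0.73 ± 0.20 (log2, SE) for Cd38, with limma's adjusted p = 0.108, and 0.66 ± 0.28 for Tigit, with limma's adjusted p = 0.377. For Cd38 all ENDO infarction arrays lay above the ENDO sham arrays, and for Tigit the groups overlapped. Anxa2, Cd22, Nkg7 and Prdm1 were separated in ENDO cells in the same way as Cd38. The share of all probe sets so separated in ENDO cells is not given here, so nothing is read from it.

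Of the markers of cell types fixed for a check of the sort, 1 of 15 for CD4 T cells could be named, Trat1, an adaptor of the T cell receptor complex. It averaged 7.64 ± 0.40 (SD, n = 5) in TCRM infarction cells and 8.73 ± 0.26 (SD, n = 3) in TCRM sham cells. That difference did not pass (limma's adjusted p = 0.0963), and Trat1 too was named through the authors' TCRM table. In ENDO cells its difference was -0.25 ± 0.27 (log2, SE, limma's adjusted p = 0.815). With Trat1 alone named, the defining markers of the sorted cells are not analysed here. Of the markers of other cells, Cd22 passed the test as higher in TCRM infarction cells, as did 0.667% of all probe sets. Nkg7 and Prdm1 did not pass (limma's adjusted p = 0.0686 and 0.0616). The authors had already selected these 3 genes on the same contrast, so the TCRM results are no independent check of the sort. Cd22, 1 of 11 B cell markers, was between 7.04 and 7.24 (log2) on TCRM infarction and between 5.52 and 6.32 on TCRM sham arrays. Nkg7, 1 of 9 for CD8 T and NK cells, was between 8.54 and 9.42 on TCRM infarction arrays and between 7.36 and 8.42 on TCRM sham arrays. Prdm1, 1 of 7 for plasma cells, overlapped between the TCRM groups (6.10 to 6.94 on infarction and 5.51 to 6.22 on sham arrays). In ENDO cells the differences (log2, SE) were 0.23 ± 0.15 for Cd22, 0.49 ± 0.24 for Nkg7 and 0.26 ± 0.19 for Prdm1. For all 3 the ENDO infarction arrays lay above the ENDO sham arrays, but none passed (limma's adjusted p from 0.482 to 0.696). How many of all probe sets were so separated in ENDO cells is not given here, so nothing is read from that separation. None of the 14 myeloid, 8 stromal and endothelial and 5 erythroid markers was named. The part of other cell types in the Egln3 difference was not tested.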

How the data were processed

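The authors deposited log2 signal for 41345 probe sets on 16 Affymetrix whole transcript arrays, and per population a table headed as 2-fold with a p-value under 0.05. The submitters' processing notes name Transcriptome Analysis Console and Affymetrix Expression Console, without versions; how signal was summarised and normalized is not stated there. Decimal commas were read as points. Egln3 was found by its exact symbol in those tables. The members and gene lists were chosen with earlier results of these data known.

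The 12404 probe sets whose mean lay under the 30th percentile (log2 4.72) were dropped, and 28941 were kept, Egln3 among them. limma 3.58.1 (R 4.3.3) estimated the 4 group means from the 16 arrays by lmFit and eBayes. Benjamini-Hochberg adjustment ran over the kept probe sets, with a threshold of 0.05. The fit was tested on simulated data. Permutation used scipy 1.17.1, and figures matplotlib 3.10.9, in python 3.11.15. Symbols follow the deposited tables, where 270 probe sets have 1 symbol. Named are Egln3, the list members with a symbol (up to 6 per list, by TCRM difference) and the 8 genes highest and the 3 lowest in r with Egln3, without gene models, clones, receptor segments and noncoding RNAs; 1 of the lowest is not reported here. Promoters come from the RefSeq table of GRCm38.p6. On minus strand genes TATAAA stood about 30 bases before the start in 288 windows, and its reverse complement at the mirrored place in 52, so sequences run 5′ to 3′ along the gene. No protein sequence was used here. Labels give each group separate samples, per the series design from 5 infarction and 3 sham animals; the number of arrays limits the precision. Other settings tried were no filter or one at the 50th percentile, other scalings, the spread of each population alone, weights, source name labels, a block by number and leaving out each array.

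Each array correlated on average at 0.935 to 0.968 with other TCRM arrays, or at 0.824 to 0.931 with other ENDO arrays, the lowest for ENDO infarction array 5. The median SD within groups was 0.197 in TCRM and 0.272 in ENDO cells.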

Additional observations from a re-analysis of the deposited data

Results flagged for a closer look

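Egln3 itself had no array far from the other arrays of its group of 5. Among 54 groups of 5 arrays examined for the 27 genes described, 2 held such an array, where chance gives about 1 in 20. Both lay on ENDO infarction array 1. For Prdm1 the gap to the nearest other array divided by the range was 0.844 (6.62 against 6.31 to 6.36, log2), and for Nkg7 it was 0.808 (8.32 against 7.50 to 7.66). Egln3 was also highest of its group on that array (6.06).

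The infarction response differed between TCRM and ENDO cells by limma's adjusted p, where 0.166% of probe sets did so with the larger response in TCRM cells, for 4 of the 8 genes most like Egln3. The TCRM minus ENDO differences (log2) were 3.33 for Il21, 2.60 for Gpr155, 1.87 for Abhd4 and 1.44 for Tmem2. They also differed for Nt5e (1.99), Gpm6b (3.24), Tigit (2.45), Angptl2 (2.15), Maf (1.83) and Il4 (1.79). These calls come from a fit that does not use the shared animals, which the labels do not match between arrays. By limma 0 probe sets were called with the array number as a fixed replicate block (2476 unadjusted), 61 with it as a random block and 0 with source name groups (3033 unadjusted). All were named through the authors' TCRM table, so a larger response in TCRM cells was favoured by that choice. For Bhlhe40 the difference was 1.42 (limma's adjusted p = 0.0554) and for Cysltr2 1.05 (limma's adjusted p = 0.294).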

How the results depend on the processing

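The Egln3 difference in TCRM cells lay between 1.84 (source name labels) and 2.80 over 25 alternatives, a move of less than the SD within groups. Many of these, such as the filters, the random block and leaving out an ENDO array, cannot change its value. The gene was also chosen on this contrast, so the number of alternatives is no measure of support. With 1 array left out the difference ran from 1.86 to 2.80, and after joint quantile normalization it was 2.12. The ENDO difference did not pass in any alternative (limma's adjusted p from 0.867 to 0.999). Its values with 1 array left out ran from -0.003 to 0.26, and the sign turned without ENDO infarction array 1 (-0.003). The difference of responses ran from 1.72 to 2.66, with those same ends when 1 array was left out. The number within the operation was also used as a replicate block, which equal numbers did not bear out (correlations of deviations from -0.089 to 0.077 over 8 pairs). The difference of responses was then 2.23 with an SE of 0.50 (random block) or 0.47 (fixed block). With the random block the ENDO difference of Egln3 still did not pass (limma's adjusted p = 0.938), and the fixed block gives no ENDO contrast. Over all probe sets the calls on the difference of responses numbered 56 without the block, 61 with the random block and 0 with the fixed block. They ran from 10 to 82 with 1 array left out. Of the 8 genes most like Egln3, 6 were among the first 8 after joint quantile normalization, 5 with group means removed and 1 by Spearman's rank correlation (Cysltr2). TCRM calls numbered 219, 0 with source name groups and 113 to 328 with 1 array left out. ENDO calls, used as background, ran from 51 to 640 with 1 array left out and numbered 257 over the 16 arrays. They numbered 448 after joint quantile normalization and 1529 with array weights. Fitting ENDO by itself gave 0 by limma's adjusted p (2307 without adjustment), and separate weights for the populations, chosen after seeing the data, gave 93.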
